A study of Mus musculus with 15 samples.

Results

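Leukemic T cells of wild-type leukemia WT0 taken after treatment with ERG-245, an inhibitor of the branched-chain aminotransferase BCAT1, were compared with those of a second wild-type leukemia, WT6, that did not receive the inhibitor. The 6 libraries were picked by their labels, 3 for each group, out of 15 in the series, and every autosomal gene was read. Of 39827 genes read, 37975 were autosomal, and 15441 of these were measured well enough to be tested. WT0 carried wild-type Bcat1 and was given 3 intraperitoneal doses of ERG-245 at 30 mg per kg, 8 h apart. WT6 also carried wild-type Bcat1, and its labels give PBS, the vehicle, as its treatment. In both groups, and in the other groups of the series, bone marrow progenitors had been given ΔE-NOTCH1, a shortened and constantly active form of the receptor, and grew as leukemia in lethally irradiated C57BL/6J mice. WT0 treated with PBS, again 3 libraries, stands beside the comparison below, and the Bcat1 knock-out groups KO7 and KO3 are not compared here but entered the filter, the scaling and the estimate of spread.

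By their labels, the treated group and WT6 differ in the inhibitor and in the number in the leukemia's name, and the effects of these cannot be told apart in this comparison. The treated and PBS libraries of WT0 share that number but also differed in their leading T cell receptor segments, given below, and the inhibitor cannot be told apart from that difference either. The labels say neither what the numbers 0 and 6 stand for nor whether the 3 libraries of a group came from separate mice. The p-values therefore rest on how far libraries of a group lay apart, and that may be technical alone. The hosts keep their own non-blood cells, and a spleen sample can hold blood cells that are not leukemic. In such bulk RNA, fewer cells of a type and less RNA per cell cannot be told apart.

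NOTCH1 is a receptor whose cleaved inner part binds the DNA-binding protein CSL and switches on genes of early T cell development. Its constant activity is a known driver of T cell acute lymphoblastic leukemia. BCAT1 is the cytosolic enzyme that transfers nitrogen from the branched-chain amino acids leucine, isoleucine and valine to 2-oxoglutarate, which makes glutamate and branched-chain ketoacids, and mitochondria break these ketoacids down further.

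Total counts were 19988338 to 20840752 in the ERG-245 libraries and 21704083 to 28902573 in the WT6 libraries. Across genes, log2 values of libraries of a group correlated at 0.994 within ERG-245 and at 0.995 within WT6, against 0.943 to 0.944 between these groups (genes are not independent replicates). Levels are given as CPM, counts divided by the scaled library total and set to a common total. The labelled cell type was checked against Cd3d, Cd3e and Thy1, which mark T cells. Cd3d was at 408 CPM with ERG-245 and 401 CPM in WT6, and Thy1 was at 730 and 1250 CPM. T cell markers were thus abundant in both groups, together with markers of other blood cells described below.

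The contrast touched most of the transcriptome. Of 15441 autosomal genes tested, 11225 (72.7%) passed edgeR's quasi-likelihood test at a Benjamini-Hochberg adjusted p under 0.05. With ERG-245, 5349 (34.6%) were higher and 5876 (38.1%) lower than in WT6. At least 2-fold changes were fewer, with 1464 genes (9.48%) higher and 1499 (9.71%) lower. The 3 libraries of each group did not overlap for 11398 genes (73.8%). The median log2 fold change of all autosomal genes was -0.02, and the middle 90% of genes lay between -1.65 and 1.59. For reference, 11210 (72.6%) passed between WT0 with PBS and WT6, which received no inhibitor, and 10166 (65.8%) between the treated and the PBS libraries of WT0. These comparisons share libraries, so their values stand side by side without a test between them.

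**Figure D1:**
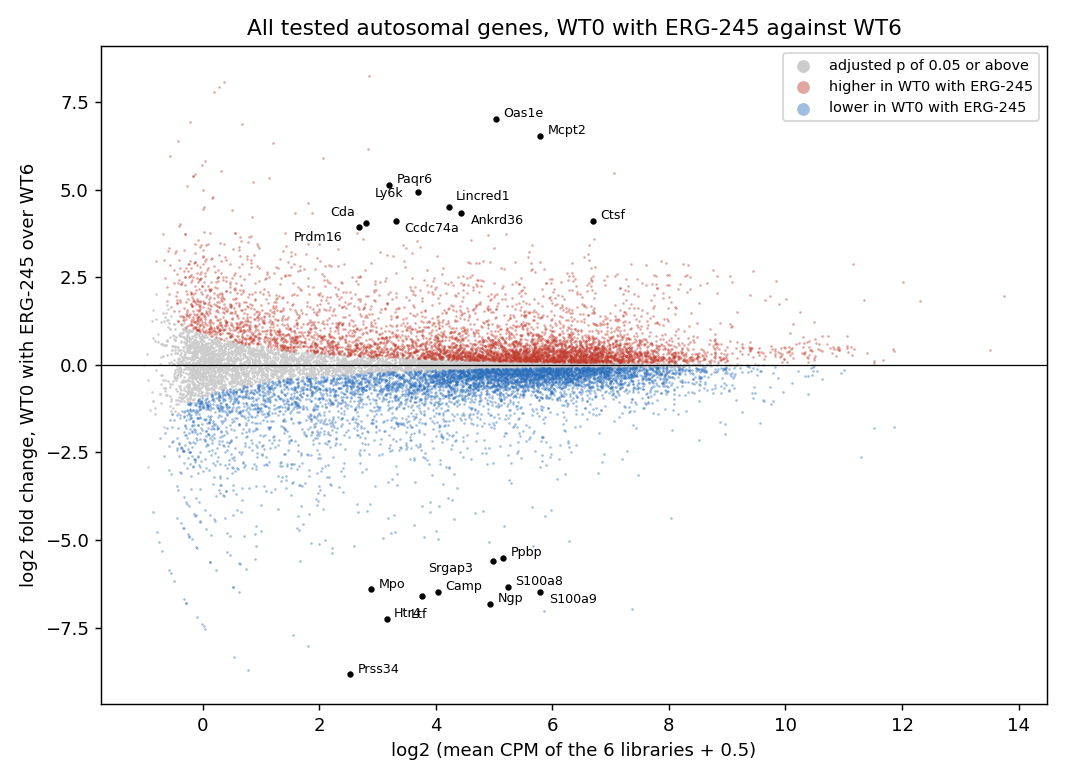
Log2 fold change of WT0 with ERG-245 over WT6 (vertical axis) against the log2 mean CPM of the 6 libraries plus 0.5 (horizontal axis), 1 point for each of 15441 autosomal genes, coloured by the call of edgeR's test. Black points name, for each direction, the 10 most changed genes with a mean of 5 CPM or more, gene models, pseudogenes and receptor genes left out, from Oas1e at 7.03 to Prss34 at -8.83.

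Bcat1 itself, on chromosome 6 from 144993835 to 145076157 (GRCm38.p6, minus strand), was measured at 14.0, 13.5 and 12.5 CPM in the ERG-245 libraries and at 34.8, 35.3 and 35.6 CPM in WT6. The groups did not overlap, and the treated libraries lay below WT6 with a log2 fold change of -1.40 (SE 0.07, edgeR adjusted p = 2.49e-30). WT0 with PBS held 17.8 ± 0.955 CPM (SD, n = 3), also far below WT6. The log2 fold change was -0.99 for WT0 with PBS over WT6 and -0.42 for the treated over the PBS libraries.

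Leaving out gene models, pseudogenes and the receptor segments described below, Oas1e showed the largest increase of the genes that averaged 5 CPM or more. It belongs to the oligoadenylate synthetases, which sense double-stranded RNA, and lies on chromosome 5 from 120786312 to 120795530. Its CPM was 63.6, 65.2 and 63.8 with ERG-245 and 0.399, 0.590 and 0.487 in WT6, a log2 fold change of 7.03 (SE 0.12, edgeR adjusted p = 2.14e-60). The 3 libraries of WT0 with PBS held 0.856 ± 0.267 CPM (SD, n = 3), so the treated libraries stood apart from both groups without inhibitor. Oas1e was nonetheless higher in WT0 with PBS than in WT6 (log2 fold change 0.84, edgeR adjusted p = 0.0156). Mcpt2, a chymase of mast cells on chromosome 14 from 56021584 to 56044635, was at 112, 110 and 104 CPM with ERG-245 against 1.30, 1.18 and 0.975 CPM in WT6. Its log2 fold change was 6.53 (SE 0.09, edgeR adjusted p = 4.44e-68), and WT0 with PBS was the lowest of the 3 groups at 0.395 ± 0.117 CPM (SD, n = 3). Both genes have close relatives beside them in the genome, so reads may be split between copies and their levels are less certain.

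WT0 with PBS was also set beside the other 8 genes with the largest increase. Prdm16, which encodes a zinc-finger transcription factor, had 11.6, 10.9 and 10.9 CPM with ERG-245, 0.798, 0.315 and 1.06 CPM in WT6, and 0.687 ± 0.169 CPM (SD, n = 3) in WT0 with PBS. Cda, the cytidine deaminase of pyrimidine salvage, had a mean of 12.2 CPM against 0.738 in WT6 and 1.14 in WT0 with PBS. For Ankrd36 the means were 40.5, 1.99 and 3.45 CPM in the same order. These 3 genes were thus low in both groups without inhibitor. Cda and Ankrd36 were nonetheless higher in WT0 with PBS than in WT6 (edgeR adjusted p = 0.0294 and 1.35e-05). Ctsf, the lysosomal protease cathepsin F, had 195, 195 and 198 CPM with ERG-245 and 11.0, 11.9 and 11.1 CPM in WT6, with 31.2 ± 0.278 CPM (SD, n = 3) in WT0 with PBS. Paqr6, Ly6k, Lincred1 and Ccdc74a were also between the other groups in WT0 with PBS. Ly6k, for example, averaged 24.0 CPM with ERG-245, 0.782 CPM in WT6 and 6.46 CPM in WT0 with PBS. Their log2 fold changes over WT6 were 5.14 for Paqr6, 4.93 for Ly6k, 4.50 for Lincred1 and 4.11 for Ccdc74a.

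Ranking genes by the smaller of their 2 fold changes, against WT6 and against WT0 with PBS, also brought up Cish, Arhgdig, Homer2 and Gdf3. Cish, an inhibitor of cytokine signalling that STAT5 switches on, was at 192, 195 and 194 CPM with ERG-245 and at 16.1 ± 0.806 CPM (SD, n = 3) in WT6. Its log2 fold change was 3.59 over WT6 (SE 0.04, edgeR adjusted p = 6.11e-71) and 3.06 over WT0 with PBS (edgeR adjusted p = 6.13e-66). Gdf3, a ligand of the TGF-beta family, had 29.7 ± 0.826 CPM (SD, n = 3) with ERG-245 against 4.28 ± 0.848 in WT6 and 4.70 ± 0.556 in WT0 with PBS. Homer2, a scaffold protein, averaged 24.1, 3.64 and 2.21 CPM in these groups, and Arhgdig 14.0, 1.52 and 1.19 CPM. To enter this ranking, a gene could have no treated library that overlapped with any of the other 6.

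**Figure D2:**
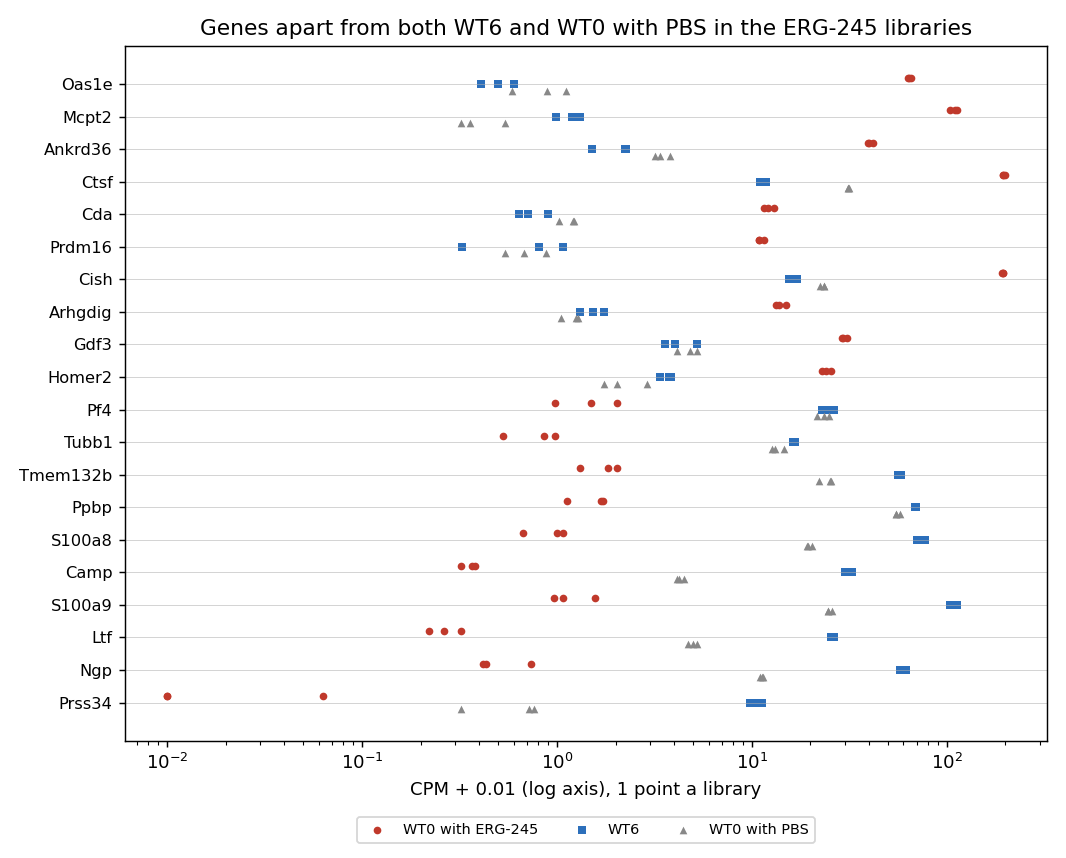
CPM plus 0.01 on a log axis for the 20 genes whose ERG-245 libraries stand apart from both other groups, 1 point for each library of WT0 with ERG-245, WT6 and WT0 with PBS. By the rule that picked them, ERG-245 points lie above every other point in the upper 10 genes and below in the lower 10. Pf4, Tubb1 and Ppbp have WT6 and WT0 with PBS close together.

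Of the 10 genes with the largest decrease, 6 encode proteins that are abundant in neutrophils. S100a9, a subunit of calprotectin, was at 0.953, 1.56 and 1.06 CPM with ERG-245 and at 104, 108 and 113 CPM in WT6, a log2 fold change of -6.50 (SE 0.08, edgeR adjusted p = 3.57e-69). Ngp, Ltf, S100a8, Camp and Mpo, which encode neutrophilic granule protein, lactoferrin, the other calprotectin subunit, cathelicidin and myeloperoxidase, had log2 fold changes between -6.83 and -6.34. WT0 with PBS lay between the other groups for these genes, with S100a9 at 24.5, 24.6 and 25.9 CPM. Prss34, a serine protease of mast cells and basophils, had 1 count in all 3 ERG-245 libraries together against 825 in WT6. Per total count this is 672 times less, with a 95% counting interval of 120 to 26594 that covers counting error only.

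Ppbp, a platelet chemokine, was at 1.11, 1.67 and 1.72 CPM with ERG-245 and at 68.6, 68.8 and 69.9 CPM in WT6. Its log2 fold change was -5.51 (SE 0.09, edgeR adjusted p = 6.5e-64), and WT0 with PBS was close to WT6 at 55.7 ± 1.76 CPM (SD, n = 3). Tubb1, the beta tubulin of platelets, and Pf4, another platelet chemokine, likewise had log2 fold changes of -4.38 and -4.03 over WT6 and of -4.11 and -3.96 over WT0 with PBS. Tmem132b, a membrane protein, averaged 1.71 CPM with ERG-245, 57.2 CPM in WT6 and 24.3 CPM in WT0 with PBS. Htr4, a serotonin receptor, and Srgap3, a GTPase activator, were low in both groups of WT0. Srgap3 held 1.24 CPM with ERG-245, 1.56 CPM with PBS and 61.1 CPM in WT6, and its treated and PBS libraries did not differ past the threshold (edgeR adjusted p = 0.274).

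Markers of blood cells other than T cells differed between the groups, and the part of such cells in the lists that follow was not tested. Red cell precursors are marked by hemoglobins and membrane proteins, and 19 of 19 erythroid markers were higher with ERG-245, with a median log2 fold change of 2.36. Together they took 5.07, 4.93 and 4.71% of the counts with ERG-245, 1.26, 1.21 and 1.38% in WT6, and 4.21 ± 0.114% (SD, n = 3) in WT0 with PBS. Slc4a1, the anion exchanger of red cells, was at 3956, 4035 and 4070 CPM with ERG-245 and at 540, 556 and 560 CPM in WT6. Both groups of WT0 were thus rich in erythroid RNA. The log2 fold change of Slc4a1 was 2.86 over WT6 (SE 0.02, edgeR adjusted p = 1.38e-82) and 0.43 over WT0 with PBS.

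All 19 neutrophil markers tested were lower with ERG-245 than in WT6, with a median log2 fold change of -5.63, the same when Fcnb is set at its bound. Their summed share was 0.0022% of counts with ERG-245, 0.0522% in WT6 and 0.0092% in WT0 with PBS. Of 20 markers, 2 had no count in the treated libraries. Fcnb, a ficolin, had 0 counts against 192 in WT6, which makes WT6 at least 52.2-fold higher when 3 counts are allowed over the treated group, or 42.0-fold at the lower end of the 95% counting interval of the ratio. Retnlg had 1 count against 376, a ratio of 306 with a counting interval of 54.7 to 12138. Platelet markers were lower in 17 of 17 cases, with a median of -3.29 over WT6 and -3.28 over WT0 with PBS. They took 0.007% of counts with ERG-245, 0.0351% in WT6 and 0.0321% in WT0 with PBS.

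B cell markers were lower than in WT6 in 17 of 19 cases with a median log2 fold change of -2.08, and none was higher. In WT0 with PBS over WT6, 12 were lower and 4 higher, with a median of -0.60. In treated over PBS libraries, 17 were lower and 1 higher, with a median of -1.12. Cd74, the invariant chain of MHC class II, was at 137, 134 and 133 CPM with ERG-245 and at 605, 585 and 612 CPM in WT6. Of 20 markers of antibody-secreting cells, 17 were lower and 3 higher, with a median of -1.18. Igkc, the kappa constant gene, stood at 1658, 1705 and 1687 CPM against 5935, 5612 and 5827 CPM in WT6, yet WT0 with PBS had only 434 CPM. Against WT0 with PBS the same markers had a median of 1.36, the opposite sign. The 3 groups were therefore ordered WT6, WT0 with ERG-245, WT0 with PBS for antibody RNA.

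Macrophage markers were split, with 10 of 24 higher and 10 lower and a median of 0.02 (mean -0.14). Of all tested autosomal genes, 34.6% were higher and 38.1% lower. Cd5l, a marker of red pulp macrophages, had a log2 fold change of 0.74, and Lyz2, the lysozyme of myeloid cells, of -1.86. Among 14 dendritic cell markers tested, 8 were lower and 2 higher. Ly6d had the smallest p of them, with 24.5, 25.6 and 22.3 CPM against 486, 470 and 537 CPM in WT6, and it also marks lymphoid precursors. Mast cell and basophil markers moved apart: 4 of 13 were higher and 8 lower. Mcpt4 stood at 14.6 CPM with ERG-245 and 4.78 CPM in WT6, and Kit, the stem cell factor receptor, at 30.0 and 11.8 CPM. Cpa3, Fcer1a and Mcpt8 were at 1.61, 0.485 and 0.190 CPM with ERG-245 against 6.27, 3.67 and 8.15 CPM in WT6 (Mcpt4, Cpa3 and Fcer1a were picked after their values were seen). The increase of Mcpt2 was thus not shared by most of the markers on its list. Stromal and endothelial markers were higher in 12 of 24 cases and lower in 5, such as Col4a1, a basement membrane collagen, at 148 against 67.8 CPM. Cytotoxic and NK genes were lower in 9 of 14 cases and higher in 2 (1 without ERG-245 replicate 1, ERG-245 replicate 3 or WT6 replicate 2), with a median of -0.46. Klrb1c, the NK1.1 receptor, was at 1.53 against 7.23 CPM and Nkg7, a granule protein, at 1.99 against 6.91 CPM. Gzmb, granzyme B, was among the higher ones at 4.43 against 0.971 CPM.

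**Figure D3:**
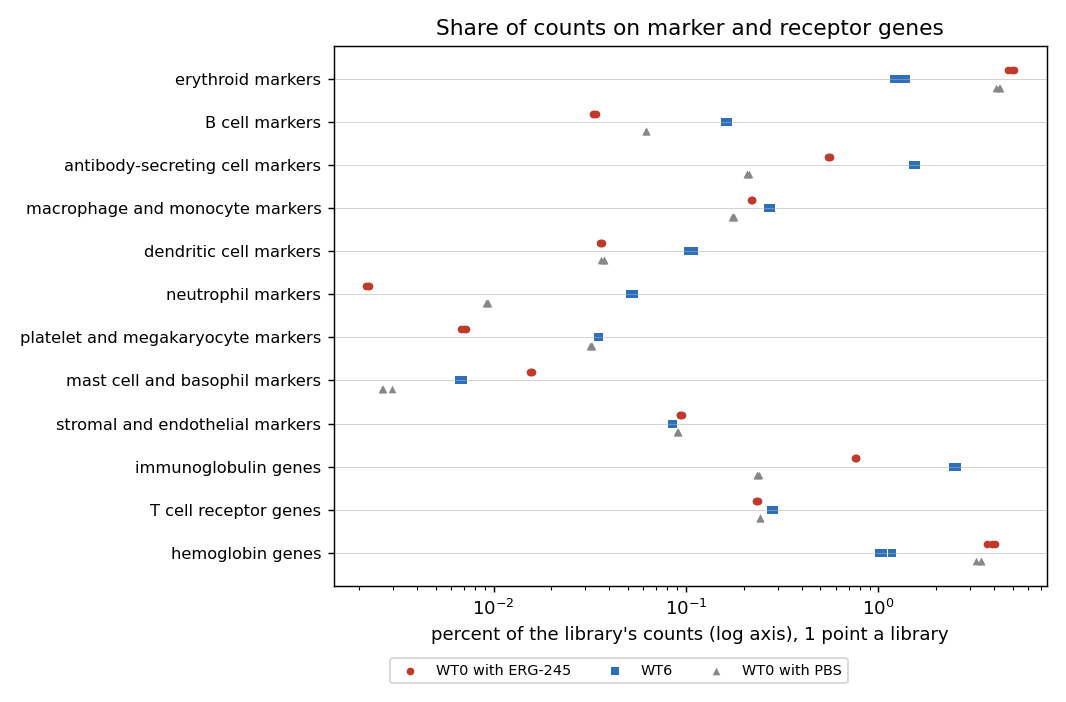
Percent of each library's counts on marker genes of 9 kinds of cells and on immunoglobulin, T cell receptor and hemoglobin genes, on a log axis with 1 point for each library. Erythroid markers take 4.90% on average with ERG-245 and 1.29% in WT6, while neutrophil and platelet markers lie lowest in the ERG-245 libraries.

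T cell receptor V segments, the gene pieces that a T cell joins into its receptor, separated the 3 groups. Trav10d made up 51.4 ± 2.97% (SD, n = 3) of all alpha V segment counts with ERG-245, 0.132% in WT6 and none of those in WT0 with PBS. Trav14-2 led in WT6 with 15.2%, and Trav15-1-dv6-1 led in WT0 with PBS with 22.5%. Each group therefore had a leading alpha segment of its own by its mean share over 3 libraries. The SD of these shares was 2.97% with ERG-245, 1.62% in WT6 and 1.16% in WT0 with PBS. Among beta segments, Trbv16 led with ERG-245 at 49.9 ± 1.19% (SD, n = 3) against 0.964% in WT6. Trbv19 held 54.4 ± 0.520% in WT6 and 0.510% with ERG-245, and Trbv17 led in WT0 with PBS with 39.7%. The treated and PBS libraries of WT0 thus differed in their leading alpha and beta segments, as each did from WT6. The alpha shares rest on 471 to 524 counts over all alpha V segments in a treated library, and V segments have near-identical copies among which reads can be split.

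Gamma segments differed less, with Trgv4 at 48.5% and Trgv2 at 44.8% with ERG-245 against 22.9% and 68.4% in WT6. Trdv2-2 led the delta segments in all 3 groups but its class had only 24 to 32 counts in a treated library. Immunoglobulin V segments showed many at low shares. Ighv1-12 led with ERG-245 at 8.62% and Ighv1-18 in WT6 at 5.49%. Over all 216 immunoglobulin segments and constant genes tested, 193 were lower with ERG-245 than in WT6 and 12 higher, with a median log2 fold change of -1.84. Of 70 T cell receptor genes, 37 (52.9%) were lower and 21 (30%) higher, with a median of -0.84. Of all tested autosomal genes, 38.1% were lower and 34.6% higher.

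**Figure D4:**
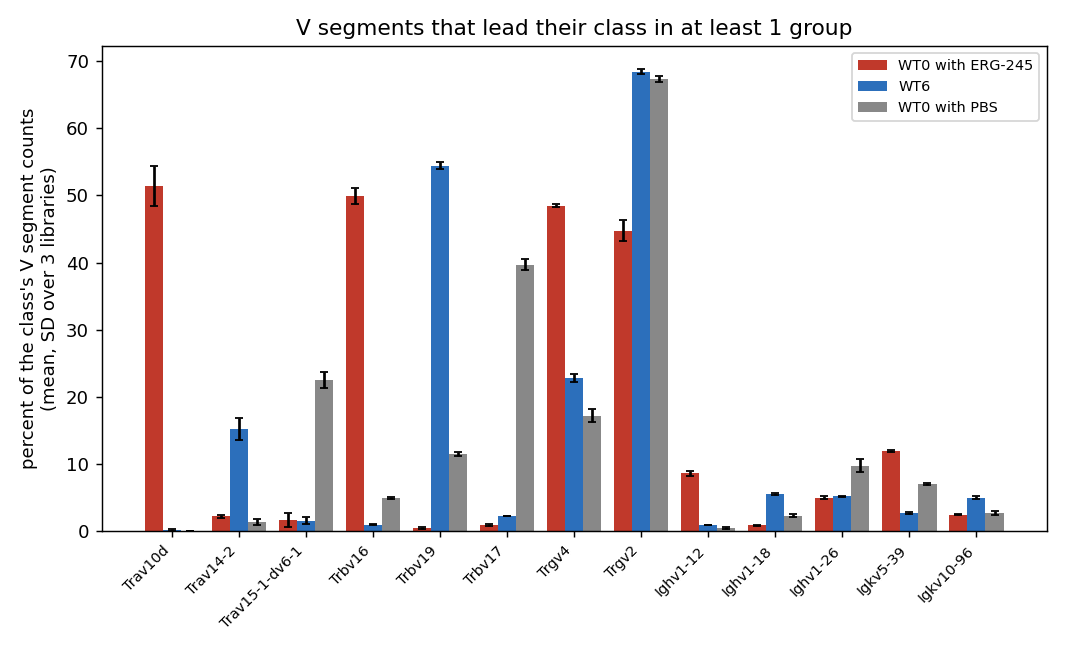
Percent of V segment counts of their class held by the segments that lead in at least 1 group, as the mean of 3 libraries with the SD as error bar, for WT0 with ERG-245, WT6 and WT0 with PBS. Trav10d (51.4%) and Trbv16 (49.9%) lead with ERG-245, Trbv19 (54.4%) leads in WT6 and Trbv17 (39.7%) in WT0 with PBS.

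Targets of NOTCH1 were mostly lower with ERG-245 than in WT6: 16 of 22 fell below WT6 past the threshold and 2 were higher, with a median log2 fold change of -0.58 against -0.02 for all genes. Il2ra, the alpha chain of the IL-2 receptor, was at 242, 236 and 227 CPM with ERG-245 and at 773, 765 and 750 CPM in WT6. Its log2 fold change was -1.70 (SE 0.02, edgeR adjusted p = 4.13e-66). Dtx1, a NOTCH pathway ubiquitin ligase, stood at 517, 550 and 549 CPM against 1161, 1173 and 1202 CPM. Hes5, a transcriptional repressor that NOTCH induces, was at 1.17, 1.20 and 0.963 CPM against 28.4, 30.4 and 30.8 CPM in WT6, a log2 fold change of -4.74. It was as low in WT0 with PBS, at 1.30 ± 0.074 CPM (SD, n = 3), and the treated and PBS libraries did not differ past the threshold (edgeR adjusted p = 0.42). Ptcra, the pre-T cell receptor alpha chain, had 117, 125 and 125 CPM with ERG-245, 257, 251 and 275 CPM in WT6 and 222 ± 1.58 CPM (SD, n = 3) in WT0 with PBS. Notch1 itself had a log2 fold change of -0.37. The 2 higher members were Myc, at 231 against 203 CPM, and Igf1r, a growth factor receptor, at 145 against 74.4 CPM. The counts over Notch1 may include those of the introduced ΔE-NOTCH1, which was not tested. For the list as a whole, the median was -0.05 in WT0 with PBS over WT6 and -0.44 in the treated over the PBS libraries.

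The letters TGGGAA, the core to which CSL binds, were searched on both strands in RefSeq promoters (GRCm38.p6), from 250 bases before to 50 after each annotated start. They stood in 6 of 17 list members with a promoter in the table (35.3%), in 25.3% of 31396 autosomal promoters and in 27.2% of 11794 tested genes with one. Matches were found in 1 of 1 higher member and in 4 of 12 lower ones. Among the 4 genes with the smallest p, Hes5 and Ptcra held matches and Il2ra and Dtx1 did not. The 125 bases before the start are shown for Ptcra, with its 2 matches in capitals, on the minus strand at chr17:46763713-46763837. Those of Hes5 are not shown, since a longer annotated transcript covers them.
Ptcra: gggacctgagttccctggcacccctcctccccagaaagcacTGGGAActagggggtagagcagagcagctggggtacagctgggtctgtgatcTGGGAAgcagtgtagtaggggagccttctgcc

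Genes of T cell identity were lower in the same direction. Of 24 members of the T cell receptor complex and its coreceptors, 22 were lower with ERG-245 than in WT6 and none higher, with a median of -0.66. Cd8a was at 344, 346 and 343 CPM with ERG-245 and at 875, 863 and 872 CPM in WT6, and Cd4 at 79.9, 82.1 and 83.0 CPM against 211, 210 and 212 CPM. WT0 with PBS had still less, with Cd8a at 164 and Cd4 at 64.7 CPM. Cd3e was less changed over WT6, at 211 against 247 CPM, and was highest in WT0 with PBS, at 535 CPM. Erythroid RNA took a larger share of the WT0 libraries, as given above, and its part in these values was not tested.

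Of 24 T-lineage transcription factors, 19 were lower and 4 higher (2 without ERG-245 replicate 3), with a median of -0.36. Tcf7, which starts the T cell programme, was at 952, 956 and 958 CPM against 1719, 1695 and 1721 CPM in WT6, with WT0 with PBS between them at 1472 CPM. Foxo1 and Id2 were at 35.7 and 41.8 CPM with ERG-245 against 84.3 and 77.6 CPM, and Myb at 247 against 349 CPM. Of all tested autosomal genes, 38.1% were lower and 34.6% higher. Of 22 immature thymocyte genes, 13 were lower and 6 higher. Rag1, a subunit of the V(D)J recombinase, had a log2 fold change of -1.01, and Lmo2, a transcriptional cofactor that red cell precursors use too, of 1.56. Among mature T cell genes, 15 of 22 were lower and 4 higher. Ccr9, a gut homing receptor, stood at 11.9, 12.8 and 13.1 CPM against 124, 119 and 122 CPM in WT6, and Pdcd1, the PD-1 receptor, at 10.6 against 63.6 CPM. Itga4, an integrin chain, was higher at 289 against 104 CPM. In WT0 with PBS over WT6, 11 immature thymocyte genes were lower and 8 higher, and 17 mature T cell genes were lower and 5 higher. In treated over PBS libraries, 11 immature genes were lower and 9 higher, and 9 mature genes were lower and 11 higher.

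Oncogenic transcription factors of T cell leukemia were mostly at low counts, and 11 of 23 fell below the filter. Of the 12 tested, 5 were higher and 4 lower, beside shares of 34.6% and 38.1% among all tested autosomal genes. Tal1, which also drives red cell development, was at 408, 412 and 428 CPM with ERG-245, 85.6, 85.0 and 87.8 CPM in WT6 and 266 CPM in WT0 with PBS. Prdm16, described above, had the largest fold change of the list, and Mef2c was lower at 7.86 against 26.6 CPM.

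Genes of the cell cycle were higher with ERG-245 than in WT6. All 30 S phase genes tested passed in that direction with a median log2 fold change of 0.59, and 28 of 29 genes of the G2 and M phases with a median of 0.47. Mki67, the proliferation marker, was at 2033, 2014 and 2025 CPM with ERG-245 and at 883, 874 and 827 CPM in WT6, a log2 fold change of 1.23 (SE 0.02, edgeR adjusted p = 3.08e-58). Ccne1, cyclin E, had 143, 144 and 138 CPM against 54.7, 51.3 and 53.2 CPM, and Rrm2, a subunit of ribonucleotide reductase, 737, 721 and 724 CPM against 341, 343 and 353 CPM. Bub1b, a spindle checkpoint kinase, was the exception at 193 against 210 CPM. WT0 with PBS was also above WT6, with list medians of 0.44 for S phase and 0.56 for G2 and M phases. Treated over PBS libraries, the medians were 0.16 and -0.08. Dividing red cell precursors use these genes too, and the part of the erythroid share in these values was not tested.

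Cytosolic ribosomal proteins were higher in 47 of 48 cases with ERG-245, and none was lower, with a median log2 fold change of 0.44. Rpl14 was at 1453, 1394 and 1366 CPM against 719, 782 and 743 CPM in WT6, and Rps19 averaged 1594 against 925 CPM. The same list had a median of 0.12 in WT0 with PBS over WT6 and of 0.31 in treated over PBS libraries. Of 32 genes of MYC and ribosome biogenesis, 21 were higher and 6 lower, with a median of 0.14. Odc1, the first enzyme of polyamine synthesis, stood at 736 against 328 CPM. Tfrc, the transferrin receptor, which red cell precursors need for iron, stood at 1456 against 435 CPM.

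Subunits of the respiratory chain and ATP synthase were higher in 44 of 49 cases and lower in 1, with a median log2 fold change of 0.26. Cox4i1, a subunit of cytochrome oxidase, was at 532, 554 and 539 CPM with ERG-245 and at 340, 343 and 372 CPM in WT6. Atp5o, Ndufb9 and Ndufv1 had log2 fold changes of 0.75, 0.74 and 0.66, and Cycs, cytochrome c, was the lower one at 116 against 132 CPM. In WT0 with PBS over WT6 the list's median was -0.05, and in treated over PBS libraries it was 0.35. Proteasome subunits were higher in 25 of 30 cases and lower in 4 (2 without ERG-245 replicate 1), with a median of 0.22, and Psma5 averaged 200 against 129 CPM. Their median was -0.16 in WT0 with PBS over WT6 and 0.39 in treated over PBS libraries.

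Many of these proteins are encoded by short transcripts, and transcript length moved with the fold change. When autosomal genes were split into 10 equal parts by exon length, the median log2 fold change over WT6 went from 0.06 in the shortest (median 617 bases) to -0.07 in the longest (median 11723 bases). It went from -0.05 to 0.15 in WT0 with PBS over WT6, and from 0.23 to -0.20 in treated over PBS libraries. The part of length in the list medians was not tested. Heat shock chaperones were higher in 12 of 20 cases and lower in 6, beside 34.6% and 38.1% of all tested autosomal genes. Hspe1 (768 bases) was higher at 280 against 160 CPM, and so was Dnajb4 (5500 bases) at 66.6 against 29.7 CPM. Chordc1 (2205 bases) was lower at 58.9 against 112 CPM, and so was Dnaja1 (3604 bases) at 133 against 215 CPM.

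Of 27 genes that break down branched-chain amino acids, 15 were higher with ERG-245 than in WT6 and 6 lower. Their median log2 fold change was 0.11. Of all tested autosomal genes, 34.6% were higher and 38.1% lower. Bcat1 was the most changed, as given above. Acaa2, a thiolase of fatty acid oxidation, was at 150, 137 and 146 CPM against 87.8, 88.0 and 93.3 CPM in WT6, and WT0 with PBS had 149 CPM. Pccb, a subunit of propionyl-CoA carboxylase, stood at 51.9 against 34.5 CPM. Bcat2, the mitochondrial aminotransferase, had a log2 fold change of 0.38, and Bckdha, a subunit of the ketoacid dehydrogenase, of 0.30 (both picked after their values were seen). In WT0 with PBS over WT6, 6 members of the list were higher and 11 lower, with a median of -0.007. In treated over PBS libraries, 12 were higher and 6 lower, with a median of 0.12.

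Regulators of leucine sensing and mTORC1 were higher in 11 of 34 cases and lower in 15, with a median of 0.00, which is near the shares of 34.6% and 38.1% among all genes. Deptor, an inhibitor in mTOR complexes, was at 48.6, 45.1 and 44.7 CPM with ERG-245 and at 124, 124 and 117 CPM in WT6. Sesn3, of the sestrin family of leucine sensors and stress proteins, stood at 11.8 against 32.1 CPM. Fnip2, a folliculin partner, was higher at 49.6 against 15.4 CPM, and it was at 49.4 CPM in WT0 with PBS. Of 19 amino acid transporters, 9 were higher and 8 lower, with a median of -0.12 and a mean of 0.18, of opposite sign. Slc6a9, a glycine transporter that red cell precursors use for heme, was at 174, 175 and 179 CPM against 25.8, 26.9 and 24.7 CPM in WT6, with 147 CPM in WT0 with PBS. Slc43a1, a transporter of large neutral amino acids, was at 237 against 58.8 CPM, and Slc7a5, the leucine carrier of the LAT1 complex, had a log2 fold change of 0.82.

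Targets of ATF4, the factor that answers amino acid shortage, were lower in 15 of 26 cases and higher in 7. Their median log2 fold change over WT6 was -0.50. Of all tested autosomal genes, 38.1% were lower and 34.6% higher. Phgdh and Psat1, which start serine synthesis, were at 185 and 143 CPM with ERG-245 and at 305 and 233 CPM in WT6. WT0 with PBS had 185 and 137 CPM, close to the treated libraries. Asns, asparagine synthetase, was higher at 82.3, 84.6 and 82.4 CPM against 48.7, 50.7 and 49.1 CPM, and WT0 with PBS was at 47.5 CPM. Ppp1r15a, which restarts translation after stress, was higher too, at 346 against 69.7 CPM, with 265 CPM in WT0 with PBS. In WT0 with PBS over WT6, 20 members of the list were lower and 2 higher, with a median of -0.82. In treated over PBS libraries, 16 were higher and 4 lower, with a median of 0.52. The tRNA synthetases were higher with ERG-245 than in WT6 in 12 of 20 cases and lower in 5, with a median of 0.13. Aars, the alanyl enzyme, was among the higher ones at 221 against 146 CPM.

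The letters TGATGNAAN, the core of the element that ATF4 binds, stood in the promoters of 8 of 23 members of the ATF4 list (34.8%) and in 3.81% of all autosomal promoters. Of the 6 higher members with a promoter, 2 held them, and of the 13 lower members, 4.

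Genes of the unfolded protein response and of folding in the endoplasmic reticulum were lower in 20 of 24 cases and higher in 2, with a median of -0.61. In WT0 with PBS over WT6, 20 were lower and 0 higher, with a median of -0.70. In treated over PBS libraries, 18 were higher and 4 lower, with a median of 0.21. Hsp90b1, the chaperone GRP94, was at 529, 511 and 517 CPM with ERG-245 and at 1087, 1090 and 1023 CPM in WT6, and Pdia4, a disulfide isomerase, at 91.8 against 228 CPM. Xbp1, the transcription factor of this response, had a log2 fold change of -0.95 over WT6 and of 0.74 over WT0 with PBS. Antibody-secreting cells use the same machinery, and their markers took 0.555% of counts with ERG-245, 1.55% in WT6 and 0.209% in WT0 with PBS. The part of those cells in the list's values was not tested.

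Genes of redox defence, many of them induced by NRF2, were higher in 19 of 26 cases and lower in 5, with a median log2 fold change of 0.58. Prdx2 and Gpx1, which remove peroxides and are abundant in red cells, were at 1253 and 1610 CPM with ERG-245 and at 346 and 440 CPM in WT6. Gclm, a subunit of the enzyme that starts glutathione synthesis, stood at 236, 226 and 237 CPM against 51.9, 53.3 and 48.8 CPM. Nqo1, a quinone reductase picked after its values were seen, had 65.9, 64.8 and 72.0 CPM with ERG-245, 5.09, 4.80 and 5.32 CPM in WT6 and 15.3 CPM on average in WT0 with PBS. The erythroid share was 3.81 times as high with ERG-245 as in WT6, and its part in these values was not tested.

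Glycolysis and hypoxia genes were mixed, with 13 of 29 higher and 9 lower and a median of 0.04. For this list and those that follow here, the shares of all tested autosomal genes were 34.6% higher and 38.1% lower. Hk1, hexokinase 1, was at 344 against 138 CPM, and Bnip3l, which clears mitochondria from maturing red cells, at 315 against 139 CPM. Of 23 citrate cycle and glutamate genes, 13 were higher and 9 lower. Pcx, pyruvate carboxylase, stood at 42.9 against 8.11 CPM. Of 29 genes of cholesterol and fatty acid synthesis, 14 were higher and 11 lower, with Scd2, a desaturase, at 356 against 530 CPM. Dioxygenases that use 2-oxoglutarate were lower in 16 of 30 cases and higher in 7 (4 without ERG-245 replicate 3 or WT6 replicate 3), with a median of -0.14, and Tet1, which oxidises methylcytosine, was at 14.6 against 35.4 CPM. Genes of histone acetylation were lower in 17 of 32 cases and higher in 8. Ncoa3, a coactivator, stood at 46.3 against 83.5 CPM and Hat1, a histone acetyltransferase, at 157 against 104 CPM.

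Genes of the interferon response were higher in 29 of 39 cases with ERG-245 and lower in 6, with a median log2 fold change of 0.99. Rsad2, the antiviral protein viperin, was at 538, 530 and 536 CPM with ERG-245 and at 74.4, 72.0 and 70.4 CPM in WT6, a log2 fold change of 2.88 (SE 0.03, edgeR adjusted p = 2.23e-78). Isg15, a ubiquitin-like protein, was at 163, 160 and 171 CPM against 32.0, 34.5 and 32.1 CPM. Oas3, which makes the second messenger oligoadenylate, stood at 84.0, 88.8 and 85.7 CPM against 12.8, 13.1 and 12.9 CPM. WT0 with PBS was also well above WT6, at 361, 109 and 59.7 CPM for these 3 genes. The list's median was 0.63 in WT0 with PBS over WT6 and 0.25 in treated over PBS libraries.

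The letters GAAANNGAA, the core of a regulatory element known from interferon-induced genes, were searched on both strands. They stood in the promoters of 16 of 29 members of the list with a promoter in the table (55.2%), in 8.52% of autosomal promoters and in 9.08% of 11794 tested genes with one. Matches were found in 11 of 22 higher members and in 3 of 4 lower ones. Of the 4 genes with the smallest p, Rsad2, Isg15 and Oas3 held matches and Isg20 did not. The 125 bases before the start are shown for Rsad2 and Isg15, with the matches in capitals, of which the 3 in Isg15 overlap. Those of Oas3 are not shown, since a longer annotated transcript covers part of them. Both genes shown lie on the minus strand, Rsad2 at chr12:26456453-26456577 and Isg15 at chr4:156200819-156200943 (GRCm38.p6, RefSeq). In Rsad2 the match is on the opposite strand and reads in reverse.
Rsad2: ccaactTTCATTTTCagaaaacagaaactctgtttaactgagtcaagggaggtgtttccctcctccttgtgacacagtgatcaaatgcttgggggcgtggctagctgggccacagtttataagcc
Isg15: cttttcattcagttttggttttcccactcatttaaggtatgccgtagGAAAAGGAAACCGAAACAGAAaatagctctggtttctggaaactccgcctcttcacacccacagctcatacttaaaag

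Interferon-inducible GTPases, which attack the vacuoles of intracellular pathogens, were higher in 13 of 18 cases and lower in 5, with a median of 0.50. Irgm1 was at 104, 103 and 111 CPM against 44.7, 43.7 and 43.9 CPM in WT6, and Tgtp2 averaged 48.4 against 15.9 CPM. Gbp8 was lower at 49.6 against 91.7 CPM. Several of these genes have near-identical copies, so their levels are less certain. MHC class I presentation, also inducible by interferon, went the other way, with 13 of 21 members lower and 4 higher and a median of -0.29. H2-K1, a classical class I chain, was at 402, 403 and 407 CPM against 594, 607 and 611 CPM, and B2m, its partner, at 1259 against 1542 CPM. WT0 with PBS was lower still, at 305 and 1045 CPM.

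Immediate early genes, which answer receptor signals within minutes, were lower in 23 of 27 cases with ERG-245 and higher in 2, with a median of -0.71. Nr4a1, an orphan nuclear receptor induced by T cell receptor signals, was at 21.5 ± 1.37 CPM (SD, n = 3) against 78.6, 77.1 and 84.4 CPM in WT6, with WT0 with PBS between them at 47.2 CPM. Btg2, an antiproliferative gene, had 182, 181 and 178 CPM against 447, 446 and 449 CPM. Of 20 p53 targets, 14 were lower and 3 higher, with a median of -0.24. Fas, a death receptor, stood at 6.27 against 17.1 CPM, with 7.00 CPM in WT0 with PBS. In the BCL2 family, 12 of 18 were lower and 3 higher. Bmf, which promotes cell death, was at 49.5 against 143 CPM, with 40.3 CPM in WT0 with PBS. Bcl2l1, whose main product BCL-XL protects cells, was higher at 190 against 89.7 CPM, with 135 CPM in WT0 with PBS. In WT0 with PBS over WT6, the medians of the immediate early, p53 and BCL2 lists were -0.66, -0.48 and -0.31. In treated over PBS libraries they were -0.27, 0.01 and 0.11.

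**Figure D5:**
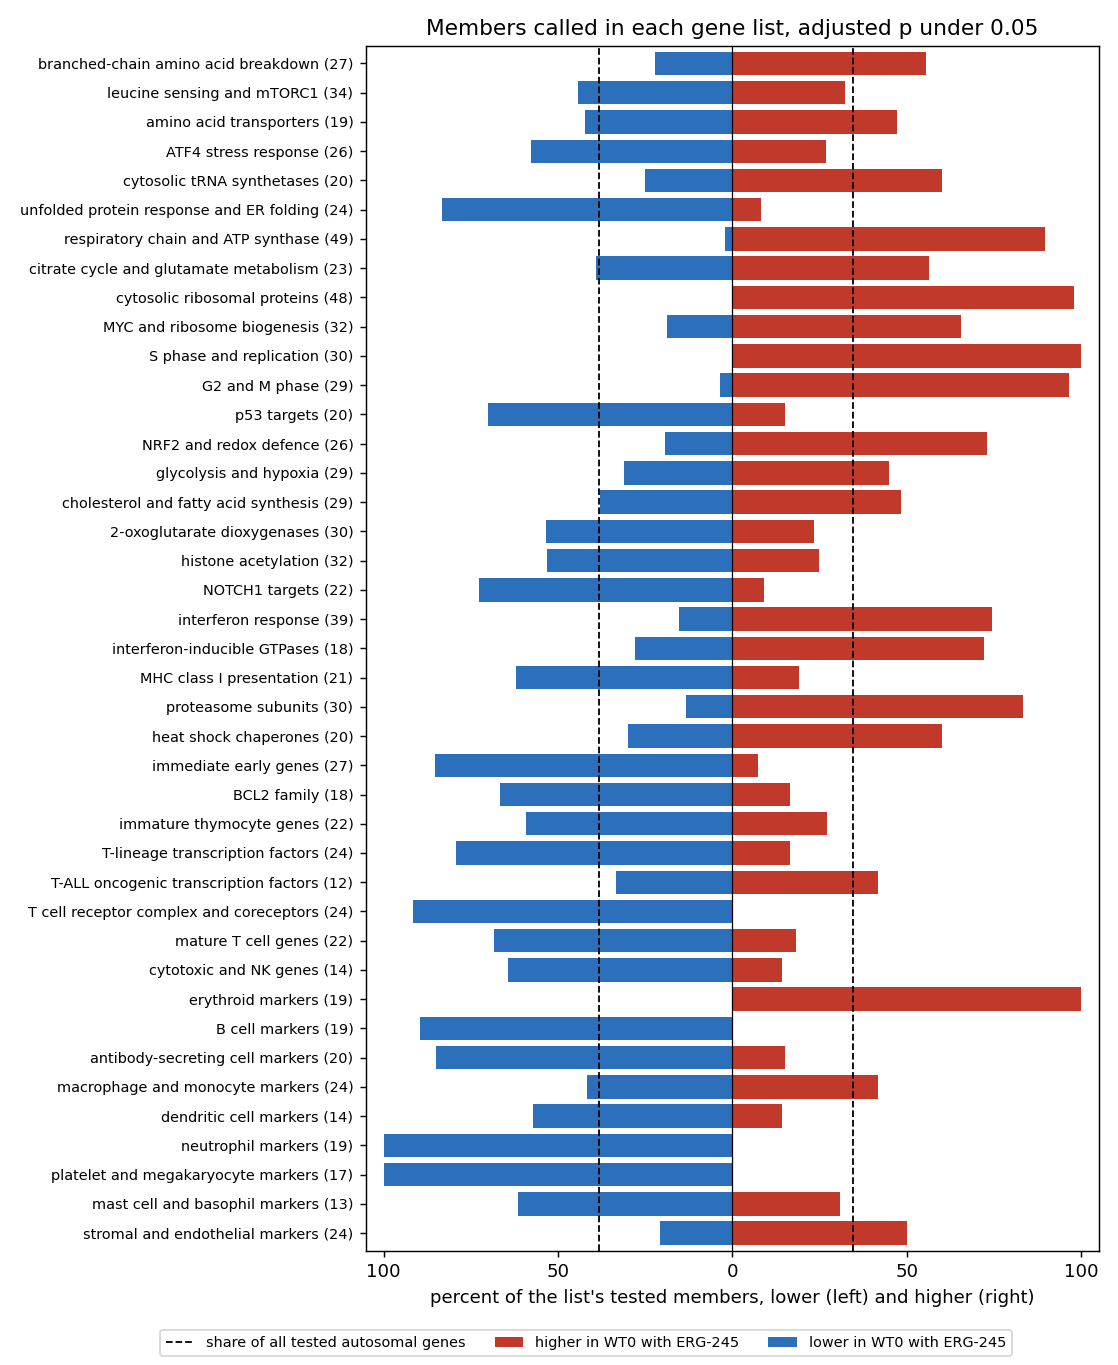
Percent of the tested members of 41 gene lists (number tested in brackets) that were lower, to the left, or higher, to the right, with ERG-245 than in WT6 at an adjusted p under 0.05. The dashed lines mark 38.1% lower and 34.6% higher among all tested autosomal genes; erythroid and S phase bars reach 100% to the right, neutrophil and platelet bars to the left.

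Along the genome, the medians of the 19 autosomes lay between -0.11 on chromosome 12 and 0.03 on chromosome 19. Without receptor segments and constant genes, the median of chromosome 12 was 0.0047, so its low value did not hold without them. Of 219 stretches of 10 Mb with at least 20 tested genes, those with the lowest medians lay on chromosome 6 from 60 to 70 Mb, at -1.95 with 74 of 84 genes lower, and from 70 to 80 Mb, at -0.99. The next was on chromosome 12 from 110 to 120 Mb, at -0.62. These hold the kappa and heavy chain loci. The highest median, 0.29, was on chromosome 3 from 150 to 160 Mb. By kind of gene, 556 of 1603 long noncoding RNAs (34.7%) were higher and 308 (19.2%) lower, with a median of 0.22. Of 13170 protein-coding genes, 4676 (35.5%) were higher and 5267 (40.0%) lower, with a median of -0.03. The shares of higher genes were thus alike, and those of lower genes were not.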

How the data were processed

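Libraries were made from RNA of leukemic spleen cells with a stranded mRNA kit, per the labels. The authors deposited raw fragment counts per gene from featureCounts 2.0.1, per the file headers, with paired fragments, a minimum overlap of 25 bases, strand setting 2 and the RefSeq annotation of GRCm38.p6. Per the submitters' processing notes, mm10 was the build, and STAR, Trim Galore, Subread and DESeq2 were used. Exon length in bases, the table's other unit, stands in the authors' deposited table too. For WT0 with PBS, the header's counting commands name DMSO alignments where the labels say PBS. In all, 3 genes on 9 broken lines were left out, and symbols were found for 39743 gene IDs and not for 84. There were 0 columns of other samples.

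Counts were fitted in R 4.3.3 with edgeR 4.0.16 (filterByExpr by group, TMM, quasi-likelihood, all 15 libraries, 10 residual degrees of freedom), with Benjamini-Hochberg adjustment over 15948 genes. SE is the log2 fold change divided by the root of F. The script was tested on simulated counts. DESeq2 1.42.0 and other settings were run as alternatives.

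Named genes are Bcat1, the 10 per direction with the largest fold change (at least 5 CPM, no overlap between groups), the 10 per direction furthest from both other groups, up to 4 per list by smallest p, leading V segments and the outermost autosomes. T cell markers, exceptions within a list and genes marked so in the text were chosen after their values were seen. Gene models and receptor genes were left out of the rankings. The members, lists and rules were chosen with earlier results of these data known, and lists overlap in places. A few list members are counted but not reported here by name.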

Additional observations from a re-analysis of the deposited data

How the results depend on the processing

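Across 265 results and 13 other settings plus 1 added after seeing the data, 3428 of 3447 recomputed values kept their direction, call or size. All 177 named genes kept their direction and call in each of the 13 settings. Nearly all had been chosen for a large fold change or a small p, which made this likely beforehand. DESeq2 called 5153 genes higher and 5500 lower, and without a filter on low counts 5326 and 6278 of 25342 genes passed. Replicate numbers are shared by the groups, but same-numbered libraries did not deviate together (r of 0.03, -0.01 and -0.02), and 2 of 6 libraries correlated best with their own number. With the replicate block, 5327 genes were higher and 5857 lower. Leaving out 1 library at a time gave 5119 to 5237 higher and 5640 to 5775 lower. Relative to all autosomal genes, the median of chromosome 19 was 0.0535 and that of chromosome 12 was -0.0917. Without the filter they were 0 and -0.0631, and leaving out 1 library gave 0.0303 to 0.0592 for chromosome 19. Without receptor genes, the added alternative, chromosome 12 turned to 0.0174. In 4 lists, a count of the rarer direction moved by over 1.5 times. The 4 lower proteasome subunits became 2 with DESeq2, with the 2 groups alone and without ERG-245 replicate 1. The 7 higher 2-oxoglutarate dioxygenases became 3 without the filter and 4 without ERG-245 replicate 3 or WT6 replicate 3. The 4 higher T-lineage factors became 2 without ERG-245 replicate 3. The 2 higher cytotoxic and NK genes became 1 in 7 settings, DESeq2 and the replicate block among them. A count of 0 in the treated libraries allows up to 3 counts over the group.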
